A study of Mus musculus with 4 samples.

Results

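Imprinted genes are genes of which only 1 parental copy is usually transcribed, and they were examined here in mouse epiblast stem cells (EpiSCs) after depletion of the HMG-box protein Tox4. A list of 33 known mouse imprinted genes, 14 grouped as maternally and 19 as paternally expressed, was looked up by symbol in the deposited table of 15429 genes. The grouping need not hold in every tissue, as with Ube3a, whose paternal copy is silent in neurons. Which copy these cells use was not measured. The table held 25 of them, 14 maternal and 11 paternal. Of these, 21 passed a filter of a mean of at least 1 FPKM (fragments counted per gene, divided by its length and by the depth of the library) and were tested. The other 8, all paternally expressed (Dlk1, Usp29, Mest, Kcnq1ot1, Airn, Nnat, Nap1l5 and Zrsr1), had no row under their symbol, an older symbol or their identifier and were not analysed here.

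All 4 libraries came from a single line of EpiSCs, OE7, which was derived from a post-implantation embryo and carries a transgene that reports Oct4 (Oct4-GFP, listed under strain as Oct4-Gip transgene). Cells at passages 21 to 25 grew on fibronectin in N2B27 medium with Activin A (20 ng/ml) and Fgf2 (12 ng/ml), the signals that hold EpiSCs in the primed state of pluripotency. They were transfected in 6-well plates with 1000 ng of esiRNA, a pool of short interfering RNAs, using 2 µl of lipofectamine. The control group received Luc esiRNA (2 libraries) and the other group Tox4 esiRNA (2 libraries), so that culture conditions, line, transgene and transfection were common to both. The labels do not say whether the replicates were separate cultures, and the p-values therefore reflect the spread among the 4 libraries alone, a spread that could be purely technical.

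Imprinting rests on DNA methylation laid down in only 1 of the parental germ lines, at control regions that keep this mark through the demethylation of the early embryo. The zinc finger proteins Zfp57 and Zfp445 bind the methylated copy and recruit Trim28, Setdb1 and DNA methyltransferases, and the state of the control region then sets which copy of the neighbouring genes is transcribed. Many imprinted genes act on the growth of the embryo and placenta, and their dosage can drift when pluripotent cells are kept in culture. The deposited values sum the reads of both parental copies, so they measure the amount of transcript and not from which copy it came.

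Of the 3 members that differed between the groups, Phlda2 and Mcts2 are shown with a stretch of DNA from in front of their RefSeq starts, so that it can be read beside their values. The windows held the 250 bases before the start that RefSeq gives on GRCm38.p6, and each is printed 5′ to 3′ on the strand of the gene up to the first base that GENCODE M21 puts in an untranslated region. For Phlda2 this left 233 bases, chr7:143502542-143502774 on the minus strand, and for Mcts2 137 bases, chr2:152686898-152687034 on the plus strand. The starts differ between the annotations. GENCODE starts Mcts2 at 152687035, 113 bases before the RefSeq start at 152687148. For Phlda2 RefSeq starts at 143502524 and 1 GENCODE transcript at 143502541, while 2 other GENCODE transcripts start farther out, at 143502993 and 143503150, so the Phlda2 stretch lies in front of the shortest transcript and inside the gene as GENCODE draws it. Capitals mark TGCCGC, the letters that ZFP57 binds when their CpG is methylated, searched on both strands together with CCATNTT, the core of the YY1 motif.
Phlda2: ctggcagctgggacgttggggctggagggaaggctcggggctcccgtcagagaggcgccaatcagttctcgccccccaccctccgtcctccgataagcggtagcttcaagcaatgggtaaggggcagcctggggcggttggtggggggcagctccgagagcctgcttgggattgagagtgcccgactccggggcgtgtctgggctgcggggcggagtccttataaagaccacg
Mcts2: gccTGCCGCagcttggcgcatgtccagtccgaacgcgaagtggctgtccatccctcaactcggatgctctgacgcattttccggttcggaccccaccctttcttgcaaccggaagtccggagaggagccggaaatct
Counts were made on the whole 250-base windows, and both were dense in CpG. Phlda2 had 21 CpG and a GC content of 68.8%, and Mcts2 had 20 CpG and 57.2%, whereas the median over 32851 mouse promoter windows of the same length was 6 CpG and 52.4%. Neither motif was found in the Phlda2 window. Mcts2 held TGCCGC at 1 place and CCATNTT at none. TGCCGC occurred in 8.676% of all windows and CCATNTT in 12.429%. Of the 27 listed members with a window, 7 had TGCCGC and 5 had CCATNTT in at least 1 window. The members were counted by gene rather than by window and include some without a row, so these figures cannot be compared with the percentages. A match of letters is a description of the sequence, and binding and methylation were not measured.

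Tox4 itself stood at 16.7 and 17.5 FPKM in the Luc libraries and at 8.65 and 8.89 in the Tox4 libraries, 0.512 times the control mean, and fell in the test used throughout (limma on log2(FPKM + 1) with Benjamini-Hochberg adjustment over 12403 genes, adjusted p = 0.00228). The libraries held between 12778056 and 19008830 reads assigned to genes, as worked back from the FPKM values. All 8 markers of primed pluripotency were tested, among them Pou5f1, the gene of Oct4, at 582 to 613 FPKM. Sox2 was higher after Tox4 esiRNA, and the other 7 did not pass. Of the 8 markers, 4 were lower in both Tox4 libraries (Fgf5, Otx2, Pou3f1 and Dnmt3b) and 2 were higher in both (Sox2 and Zic2). These were 50% and 25% of the markers, beside 26.7% and 25.3% of all tested genes, and the difference was not tested. None of the 3 naive markers with a row (Klf4, Esrrb, Tfcp2l1) reached a mean of 1 FPKM. Of the neural progenitor markers 7 of 8 had a row and 4 were tested. Of these, 3 rose (Sox1, Fabp7 and Ncam1), while Nes, the most abundant, did not pass and lay lower in both Tox4 libraries (52.7 and 51.5 FPKM against 49.9 and 49.8). Pax6 and Hes5, under the filter, overlapped between the groups, and Pax3 was at 0 in 3 libraries. Their summed level was 77.2 to 78.6 FPKM in the Luc libraries and 92.6 to 93.4 in the Tox4 libraries, and the part of this shift in the results on imprinted genes was not tested. In bulk RNA, fewer cells of a type and less RNA per cell cannot be told apart.

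Most of the tested imprinted transcripts did not pass the test. Of the 21 tested members, 3 fell after Tox4 esiRNA (Phlda2, Impact and Mcts2), none rose, and 18 did not pass. Over all 12403 tested genes 2.62% fell and 1.89% rose, 4.51% in either direction. Without adjustment, 5 members had a p under 0.05, the 3 that fell and 2 that were higher (Rian and Ndn), and over all tested genes the share was 21.6%, near that of the members. On the reads worked back, limma-voom called 1 member higher (Rian) and 2 lower (Impact and Phlda2). It called 5.95% of all tested genes higher and 5.87% lower. Among the 12 maternally expressed members 1 fell, and among the 9 paternally expressed members 2 fell. The members together took 0.477% and 0.478% of reads in the Luc libraries and 0.490% and 0.482% in the Tox4 libraries, a level that was nearly the same in all 4. Gnas and Grb10, which did not pass, had the most of these reads (81506 and 67394 over the 4 libraries). The total therefore says little about the other members.

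The median log2 fold change of the 21 members was 0.019, with 12 values above 0 and 9 below, beside a median of -0.0034 over all tested genes. Fold changes are Tox4 minus Luc, as log2 of the ratio of (FPKM + 1), so that for a gene of a few FPKM they come out smaller than the ratio of its FPKM values. The maternal members had a median of 0.064, with 9 of 12 above 0, and the paternal members one of -0.029, with 6 of 9 below 0. Over all tested genes 6057 values were above 0 and 6346 below, and the difference between the maternal and paternal sets was not tested. In 7 members both Tox4 libraries lay above both Luc libraries, and in 5 they lay below, while 9 overlapped. These were 33.3% and 23.8% of the members, and over all tested genes such separation was found for 25.3% upward and 26.7% downward; the difference was not tested.

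**Figure D1:**
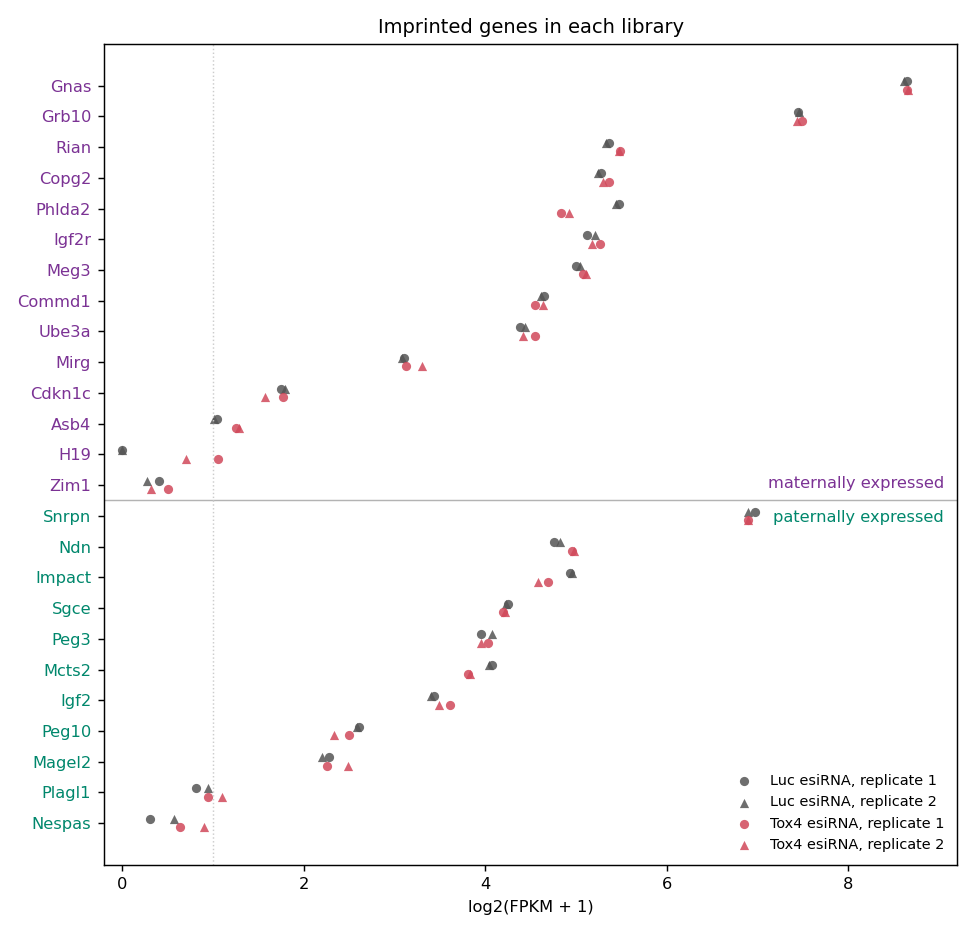
Level of each of the 25 imprinted genes with a row, as log2(FPKM + 1) on the horizontal axis, with 1 point per library (grey for Luc esiRNA, red for Tox4 esiRNA, circles for replicate 1 and triangles for replicate 2). Genes are ordered by mean within the maternally expressed (upper) and paternally expressed (lower) sets, the dotted line stands at 1 FPKM, and Phlda2 is the gene whose grey and red points lie farthest apart among those right of the line.

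**Figure D2:**
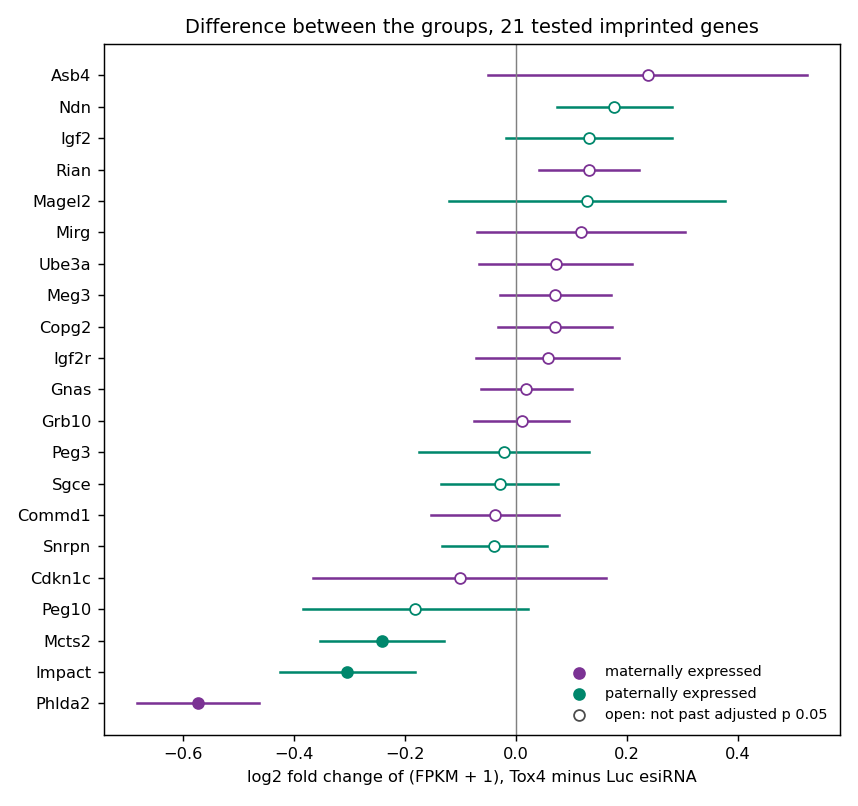
Log2 fold change of (FPKM + 1), Tox4 minus Luc esiRNA, for the 21 tested imprinted genes, with bars for the 95% interval of limma. Filled points passed an adjusted p of 0.05; these are Phlda2, Impact and Mcts2, all to the left of 0.

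Phlda2, a small protein with a pleckstrin homology domain that restrains growth of the placenta, had the lowest adjusted p of the members. It lies at chr7:143501545-143503150 on the minus strand and is transcribed from the maternal copy. Its level was 43.3 and 42.4 FPKM in the Luc libraries and 27.6 and 29.4 FPKM in the Tox4 libraries, on 638, 493, 315 and 291 reads. Both Tox4 libraries were thus well below both Luc libraries. The group means were 42.9 ± 0.637 and 28.5 ± 1.28 FPKM (SD, n = 2 each), a ratio of 0.665. On the log2 scale the difference was -0.57, with an SE of 0.045 and a 95% interval from -0.68 to -0.46 (adjusted p of limma = 0.00407). Phlda2 fell with every one of the 14 alternative settings (other pseudocounts, filters and scalings of the libraries, no trend of variance with intensity, the replicate number as a block, limma-voom, and each library left out), with a log2 fold change between -0.62 and -0.53 and an adjusted p between 2.96e-05 and 0.0464.

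Phlda2 is known mainly from trophoblast, so the markers of that lineage are given beside it. Of 8 trophoblast markers 4 had a row (Eomes, Tfap2c, Krt7 and Ascl2), and none passed the test. Their fold changes were all below 0, from -0.28 for Eomes to -0.13 for Tfap2c. The summed level was 23.7 and 19.6 FPKM in the Luc libraries and 17.5 and 18.9 in the Tox4 libraries, lower in both Tox4 libraries. Krt7, the largest part of the sum, overlapped between the groups (11.1 and 8.91 FPKM against 7.98 and 9.83). Eomes, Tfap2c and Ascl2 were lower in both Tox4 libraries, as were 26.7% of all tested genes. Cdx2, Elf5, Hand1 and Plac1 had no row and were not analysed here. The part of trophoblast transcripts in the Phlda2 result was not tested.

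No tested neighbour of Phlda2 fell, but only 2.62% of all tested genes did, so that none among 12 is near the general share. Phlda2 belongs to the domain on distal chromosome 7 that the Kcnq1ot1 RNA silences on the paternal chromosome, and 12 tested genes start within 500 kb of its start. Of these 1 rose (Cd81, which starts at -450.4 kb), and their log2 fold changes ran from -0.10 to 0.18. Cdkn1c, the maternally expressed inhibitor of cyclin-dependent kinases in the same domain, read 2.37 and 2.47 FPKM with Luc esiRNA and 2.41 and 1.98 with Tox4 esiRNA. Its groups overlapped, and the log2 fold change of -0.10 had an interval from -0.37 to 0.16 (limma adjusted p = 0.65). Slc22a18, a transporter gene that starts at -29.4 kb, gave -0.08 (adjusted p = 0.693), and Nap1l4, a histone chaperone gene 46.0 kb away on the other side, gave 0.04 (adjusted p = 0.611). Ascl2, a trophoblast transcription factor imprinted in the same region, read 7.54 and 5.94 FPKM against 5.51 and 5.29 and did not pass (-0.27, adjusted p = 0.223).

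**Figure D3:**
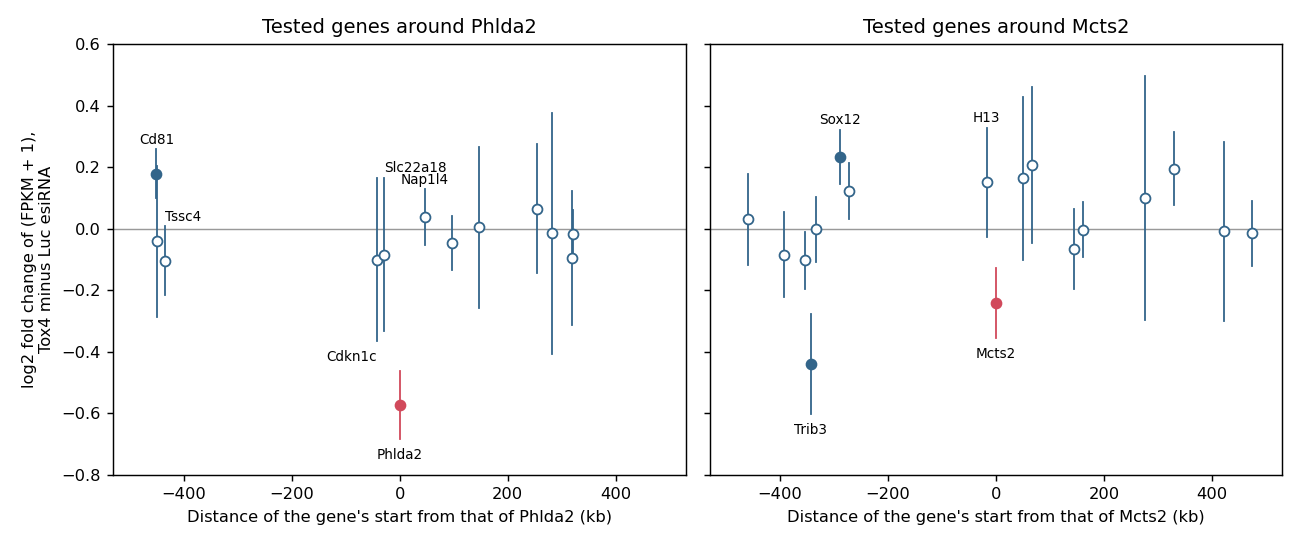
Log2 fold change of (FPKM + 1), Tox4 minus Luc esiRNA, of tested genes that start within 500 kb of Phlda2 (left) and Mcts2 (right), against the distance of their starts along the chromosome in kb, with bars for the 95% interval of limma. Filled points passed the test, red marks the imprinted gene itself, and around Phlda2 the other values lie between -0.10 and 0.18.

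Mcts2 is an intronless copy of the X-linked gene Mcts1, whose protein helps ribosomes to recycle and reinitiate, and sits inside an intron of H13, where the paternal copy is transcribed. It covers chr2:152687035-152687946 on the plus strand. The Luc libraries read 15.9 and 15.5 FPKM and the Tox4 libraries 13.04 and 13.21 FPKM, on 245, 189, 156 and 137 reads. The groups did not overlap, with means of 15.7 ± 0.252 and 13.1 ± 0.121 FPKM (SD, n = 2 each). The difference in log2 was -0.24, with an SE of 0.046 and a 95% interval from -0.35 to -0.13, and its adjusted p of 0.047 in limma was just inside the threshold. The call held in 6 of 14 alternatives (adjusted p from 0.0237 to 0.25 over all 14). It was lost without any filter on low values (0.0633), without the intensity trend (0.0928), with a replicate block (0.0724), with limma-voom (0.131) and without any 1 library (Luc replicate 1, 0.25; Luc replicate 2, 0.2; Tox4 replicate 1, 0.101; Tox4 replicate 2, 0.0871).

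Neither the host gene nor the parent gene of Mcts2 passed the test. H13, which encodes signal peptide peptidase, read 6.49 and 6.70 FPKM with Luc esiRNA and 7.01 and 7.86 with Tox4 esiRNA. It was higher in both Tox4 libraries but did not pass (log2 fold change 0.15, limma adjusted p = 0.301). Mcts1 read 15.4 and 14.0 FPKM in the Luc libraries and 13.9 and 15.1 in the Tox4 libraries, and its groups overlapped (-0.02, adjusted p = 0.918). The ratio of Mcts2 to Mcts1 was 1.03 and 1.11 in the Luc libraries and 0.939 and 0.873 in the Tox4 libraries. The transcripts of Mcts2 and Mcts1 could be aligned over 668 bases, of which 84.132% were identical, with a longest identical run of 29 bases. How reads that match both genes were treated is not given in the sources used here. Among the 16 tested genes that start within 500 kb of Mcts2, Sox12 rose (0.23, limma adjusted p = 0.029). Trib3, a stress-induced pseudokinase gene, fell (-0.44, limma adjusted p = 0.027), and the other 14 did not pass. Of all tested genes, 1.89% rose and 2.62% fell.

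Impact, a paternally expressed gene whose protein binds Gcn1 and restrains the kinase Gcn2 in the response to amino acid shortage, fell to 0.804 times its control level. It covers chr18:12955852-12992950 on the plus strand. The Luc libraries read 29.4 and 29.9 FPKM and the Tox4 libraries 24.8 and 22.9 FPKM, on 1955, 1568, 1278 and 1023 reads. Both Tox4 libraries lay below both Luc libraries, with means of 29.7 ± 0.341 and 23.9 ± 1.34 FPKM (SD, n = 2 each). This was -0.30 in log2, with an SE of 0.05 and a 95% interval from -0.43 to -0.18 (adjusted p of limma = 0.0338). The call held in 9 of 14 alternatives (adjusted p from 0.000548 to 0.173 over all 14) and was lost without a filter (0.0529), without the intensity trend (0.097), without Luc replicate 1 (0.157), without Luc replicate 2 (0.173) and without Tox4 replicate 2 (0.0554). Osbpl1a and Ttc39c, the 2 tested genes that start within 500 kb of Impact, gave -0.04 and 0.12 and did not pass.

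The maternally transcribed noncoding RNAs of the Dlk1-Dio3 domain on chromosome 12 were all present, although these RNAs are often silenced in cultured pluripotent cells. Meg3, the first transcript of the cluster, read 30.9 and 32.1 FPKM with Luc esiRNA and 32.7 and 33.6 with Tox4 esiRNA. Rian, the host of a cluster of C/D box small nucleolar RNAs, read 40.2 and 39.2 FPKM against 43.9 and 43.3. Mirg, which hosts microRNAs, read 7.63 and 7.503 FPKM against 7.72 and 8.90. In all 3, which lie in the same cluster, both Tox4 libraries were above both Luc libraries by small amounts. Such separation upward was found for 25.3% of all tested genes.

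None of these RNAs passed the test. Rian had a log2 fold change of 0.13 (95% interval 0.04 to 0.22, limma adjusted p = 0.107), and passed only with limma-voom (adjusted p = 0.0167, range 0.0167 to 0.396 over 14 alternatives). Meg3 gave 0.07 (-0.03 to 0.17, adjusted p = 0.377) and Mirg 0.12 (-0.07 to 0.30, adjusted p = 0.444). Of the small RNA genes lying inside Meg3, Rian or Mirg, 18 had a row; 7 of these had no read in any library and 10 had 1 to 15 reads over all 4 libraries. The remaining one, Mir1906-1, lies in an exon of Meg3 and had 295 and 261 reads in the Luc libraries and 255 and 233 in the Tox4 libraries. Poly(A)-selected RNA of this kind does not measure mature microRNAs or small nucleolar RNAs. Meg3 also shares 1228 exonic bases with Gm26906 on the opposite strand, and whether the counting used strand is not given in the sources used here.

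The imprinted genes of the insulin-like growth factor axis did not pass. Igf2, the paternally expressed fetal growth factor, read 9.83 and 9.57 FPKM with Luc esiRNA and 11.2 and 10.3 with Tox4 esiRNA, higher in both Tox4 libraries. Its log2 fold change was 0.13 (95% interval -0.02 to 0.28, limma adjusted p = 0.284), and 62.834% of its exonic length is shared with the read-through model Gm49394 on the same strand. Igf2r, the maternally expressed receptor that takes up Igf2 for degradation, read 33.7 and 36.04 FPKM against 37.6 and 35.1, with overlapping groups (0.06, -0.07 to 0.19, adjusted p = 0.59). Grb10, a maternally expressed adaptor that damps signalling from the insulin and IGF receptors, was among the most abundant members at 173 and 174 FPKM against 178 and 171 (0.01, -0.08 to 0.10, adjusted p = 0.905).

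Peg3, and the genes Peg10, Sgce and Asb4 of a shared domain, did not pass either. Peg3, a large zinc finger gene on chromosome 7, read 14.4 and 15.9 FPKM against 15.4 and 14.5, and the groups overlapped (-0.02, -0.17 to 0.13, limma adjusted p = 0.89). Peg10, a retrotransposon-derived gene needed for the placenta, read 5.10 and 4.996 FPKM with Luc esiRNA and 4.64 and 4.05 with Tox4 esiRNA. It was lower in both Tox4 libraries and did not pass (-0.18, -0.38 to 0.02, adjusted p = 0.278). Sgce, encoding epsilon-sarcoglycan, starts close to Peg10 on the opposite strand and read 18.0 and 17.7 FPKM against 17.4 and 17.6 (-0.03, -0.13 to 0.08, adjusted p = 0.749). Asb4, a maternally expressed gene of the same domain on chromosome 6 that encodes a substrate receptor of a ubiquitin ligase, was low at 1.07 and 1.02 FPKM against 1.38 and 1.45. It had the largest positive fold change among the tested members and the widest interval (0.24, -0.05 to 0.53, adjusted p = 0.312), on 49 to 65 reads per library.

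In the Snrpn-Ube3a domain on chromosome 7, the counterpart of the human Prader-Willi and Angelman region, 4 members were tested and none passed. Ndn, encoding the growth-restraining protein necdin, read 25.998 and 27.27 FPKM with Luc esiRNA and 30.04 and 30.44 with Tox4 esiRNA. Both Tox4 libraries were higher, by a log2 fold change of 0.18 (95% interval 0.07 to 0.28, limma adjusted p = 0.0762). Ndn passed in only 2 of 14 alternatives. These were a mean of at least 5 FPKM (limma adjusted p = 0.0469, 9066 genes tested) and a mean of at least 20 reads (0.0445, 12296 genes tested). The main fit tested 12403 genes, and the cause of the shift was not tested. Magel2, a second gene of the MAGE family, read 3.85 and 3.60 FPKM against 3.77 and 4.60 (0.13, adjusted p = 0.527). Ube3a, a ubiquitin ligase gene whose paternal copy is silent in neurons, read 19.8 and 20.6 FPKM against 22.3 and 20.4, with overlapping groups (0.07, adjusted p = 0.523).

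Snrpn, which encodes a spliceosomal protein, was among the most abundant paternal members at 125 and 118 FPKM with Luc esiRNA and 118 in both Tox4 libraries (-0.04, 95% interval -0.13 to 0.06, limma adjusted p = 0.618). The deposited row carries an identifier that the GENCODE M21 annotation names Gm38393, a model that shares 589 exonic bases with the model called Snrpn there. Snurf, which is encoded on the same transcript, had a row at 0 in all 4 libraries. The 2 gene models cannot be told apart in these values.

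Gnas had the highest level of all members, at 399 and 390 FPKM with Luc esiRNA and 398 and 401 with Tox4 esiRNA, and its groups overlapped (0.02, 95% interval -0.06 to 0.10, limma adjusted p = 0.797). It encodes the stimulatory G protein alpha subunit, along with other imprinted products that the row cannot separate. Copg2, which encodes a coatomer subunit, read 37.8 and 36.9 FPKM against 40.3 and 38.3 (0.07, adjusted p = 0.396). It shares 912 exonic bases with the absent member Mest on the opposite strand. Commd1, which encodes a protein of copper handling and is the host of the absent member Zrsr1, read 24.1 and 23.4 FPKM against 22.46 and 23.80 (-0.04, adjusted p = 0.7). It shares 412 exonic bases with Zrsr1, also on the opposite strand.

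The 4 members with a mean under 1 FPKM were not tested, and 3 of them rested on few reads. H19, a maternally expressed growth-restraining noncoding RNA, was listed at 0 in both Luc libraries and had 2 reads and 1 read in the Tox4 libraries. All 4 libraries were thus at or under the limit of 3 reads that a count of 0 allows in libraries of 12778056 to 19008830 reads (counting error only), and no fold is given. Zim1, a maternally expressed zinc finger gene, had 1 to 2 reads per library. Nespas, the paternally expressed antisense RNA of the Gnas domain, had 5 and 8 reads against 9 and 12, and shares 988 exonic bases with Gnas. Plagl1, a paternally expressed zinc finger transcription factor, read 0.764 and 0.927 FPKM against 0.929 and 1.15, on 66 to 71 reads per library, more reads than the tested member Asb4 but spread over a longer gene.

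The length by which the deposited FPKM values had been divided bears on the comparison of levels between genes. Worked back from the values, it was shorter than the annotated exonic length for genes with few reads. In genes with 1 read over all 4 libraries the median length was 57 bases (257 genes), while genes with at least 1000 reads had a median of 77.336% of the GENCODE exonic length. For H19 it was 122 of 2460 bases and for Zim1 314 of 8086 bases. The FPKM of such genes stand higher than their full length would give, which does not touch a ratio between libraries within a gene. Among the 21 tested members, with 238 to 81506 reads over all 4 libraries, 12 had a mean above 20 FPKM and 3 (Gnas, Grb10 and Snrpn) above 100. Above 20 FPKM were 9 of the 12 maternal and 3 of the 9 paternal members. By mean FPKM the median member ranked at percentile 70.8 of all tested genes, the median maternal member at 80.4 and the median paternal member at 57.5, while Asb4 ranked at 3.19 and Cdkn1c at 12.4. The paternal figures rest on 9 of 19 listed genes, since 8 had no row, and the maternal figures on 12 of 14. The levels of the 2 sets therefore cannot be compared as a whole.

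**Figure D4:**
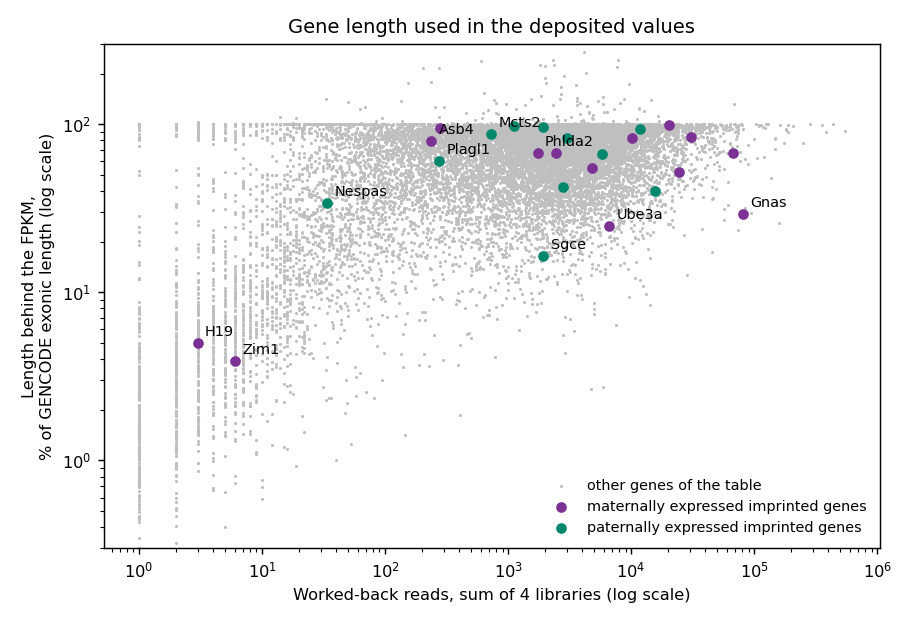
Length behind the FPKM of each gene, in percent of its exonic length in GENCODE (vertical, log scale), against its reads summed over the 4 libraries (horizontal, log scale). Purple and green points are maternally and paternally expressed imprinted genes, grey points are the other genes of the table, and H19 and Zim1 lie at the lower left with 3 and 6 reads.

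None of the genes that set or keep imprints passed the test, but only 4.51% of all tested genes did. None among 16 is thus near the general share. Of 18 listed genes 17 had a row and 16 were tested (Dppa3 had no row, and Dnmt3l, with at most 1 read per library, was under the filter). Their median log2 fold change was 0.069, with 13 above 0. Without adjustment 2 had a p under 0.05, both lower (Zfp57 and Dnmt3b), and limma-voom called the same 2 lower. Over all tested genes 11.5% were lower without adjustment, and limma-voom called 5.87% lower. Zfp57, the zinc finger protein that marks methylated control regions, read 24.7 and 23.3 FPKM with Luc esiRNA and 20.6 and 20.9 with Tox4 esiRNA. Both Tox4 libraries were lower, with a log2 fold change of -0.20 (95% interval -0.31 to -0.09, limma adjusted p = 0.0693). The de novo methyltransferase Dnmt3b read 122 and 125 FPKM against 113 and 112 (-0.13, limma adjusted p = 0.0825), and passed only with limma-voom (0.0103, in a range up to 0.353 over 14 alternatives).

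Zfp57 passed in 3 of 14 alternatives, with a mean of at least 5 FPKM (limma adjusted p = 0.0391), with a mean of at least 20 reads (0.0372) and with limma-voom (0.0111), in a range up to 0.327. Its cofactor Trim28 was the most abundant of these genes at 287 and 283 FPKM against 296 and 307 (0.08, adjusted p = 0.265). The maintenance methyltransferase Dnmt1 read 81.0 and 84.9 FPKM against 89.55 and 86.35 (0.08, adjusted p = 0.298), and its partner Uhrf1 91.9 and 95.2 against 98.3 and 99.7 (0.08, adjusted p = 0.258). These 3 were higher in both Tox4 libraries by amounts that did not pass. Of the 16 tested genes that set or keep imprints, 43.8% were higher and 18.8% lower in both Tox4 libraries. The shares over all tested genes were 25.3% and 26.7%, and the difference was not tested.

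Further genes of imprinted domains, 44 in all, had 30 rows and 21 tested genes, of which 2 rose (Peg12 and Cd81) and none fell. Over all tested genes 1.89% rose and 2.62% fell, so that no fall among 21 is near the general share. Without adjustment 5 of the 21 were higher and 3 lower at a p under 0.05, where 1243 and 1431 of the 12403 tested genes were. Peg12, a paternally expressed intronless gene of the Frat family in the same domain as Ndn and Magel2, read 1.68 and 1.33 FPKM with Luc esiRNA and 3.72 and 4.46 with Tox4 esiRNA, on 85, 53, 146 and 152 reads. The groups lay far apart, with a ratio of FPKM of 2.72 and a log2 fold change of 1.02 with a 95% interval from 0.72 to 1.32 (SE 0.122; adjusted p of limma = 0.0146). The call was lost without Luc replicate 1 (0.0532), without Luc replicate 2 (0.0783) and without the intensity trend (0.0531), out of 13 alternatives with adjusted p from 1.05e-05 to 0.0783. Mkrn3, another paternally expressed gene next to Peg12, read 3.69 and 3.33 FPKM against 2.54 and 3.02 and did not pass (-0.26, adjusted p = 0.222).

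Cd81, a tetraspanin gene at the far end of the Kcnq1 domain from Phlda2, read 106 FPKM in both Luc libraries and 119 and 121 in the Tox4 libraries. It rose by 0.18 in log2, with an SE of 0.032 (adjusted p of limma = 0.0423), a call that held in 7 of 14 alternatives (adjusted p from 0.00429 to 0.211). It was lost without a filter (0.0606), without the intensity trend (0.133), with a replicate block (0.0757) and without any 1 library (Luc replicate 1, 0.21; Luc replicate 2, 0.211; Tox4 replicate 1, 0.0644; Tox4 replicate 2, 0.0944). Tssc4 of the same domain read 27.4 and 29.1 FPKM against 25.8 and 26.6 (-0.10, adjusted p = 0.263). Blcap, the host of the absent member Nnat, read 13.1 and 12.8 FPKM against 15.0 and 15.0 (0.20, adjusted p = 0.0715), and Trappc9, from another imprinted domain, 12.98 and 12.64 against 14.7 and 14.0 (0.15, adjusted p = 0.155). Herc3, the host of the absent member Nap1l5, gave -0.04 with overlapping groups (adjusted p = 0.735).

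Fibroblasts and extraembryonic endoderm are other cells that an EpiSC culture could hold, and their markers are given as a check of the labelled cell type. Of the fibroblast markers 6 of 8 had a row and 4 were tested, and none passed. Their summed level was 20.2 and 20.3 FPKM with Luc esiRNA and 18.3 and 19.2 with Tox4 esiRNA. Of the extraembryonic endoderm markers 5 of 8 had a row and 2 were tested (Dab2 and Foxa2), and neither passed. The 5 with a row summed to 18.1 and 17.9 FPKM against 15.6 and 16.9, a sum lower in both Tox4 libraries, as was the fibroblast sum. Single markers did not all follow. Col1a1, Pdgfrb, Foxa2 and Pdgfra were lower in both Tox4 libraries, as were 26.7% of all tested genes. Thy1, Col1a2, Col3a1, Dab2, Gata6 and Sox17 overlapped between the groups, and Postn was higher in both Tox4 libraries.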

How the data were processed

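Polyadenylated RNA of 4 libraries (2 Luc, 2 Tox4, grouped by title) was analysed. The authors deposited FPKM values per gene with Ensembl identifiers. The submitters' processing notes name CASAVA 1.8, STAR 2.3.0e and GRCm38.p1; which counting program, annotation and strand setting followed is not given in the sources used here. From the steps between a gene's values in the 4 libraries, its reads and length were worked back, with a common factor above 1 needed for 4.555% of 15126 genes. Positions came from GENCODE M21 on GRCm38, which held 98.665% of identifiers. Promoter sequences came from RefSeq.

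The test covered genes averaging 1 FPKM or more and used limma 3.58.1 in R 4.3.3 on log2(FPKM + 1), two-sided, with an intensity trend, all 4 libraries, no covariate and Benjamini-Hochberg adjustment at 0.05. There were 2 residual and 4.01 prior degrees of freedom. The calculations were tested on simulated data. The members and lists were chosen with earlier results of these data known. Every member with a row was named, and of the other lists each gene past the threshold and up to 4 more with the highest mean. Zfp57, Ascl2, Mkrn3, Ddc, Atp10a, Herc3, H13, Mcts1, Slc22a18, Osbpl1a, Ttc39c, Sox12, Trib3 and further cell type markers were named in addition. These were hosts, neighbours, markers or relatives, or had an unadjusted p under 0.05. Alternatives were pseudocounts of 0.1 and 0.5, no filter, a mean of at least 5 FPKM, no intensity trend, 2 scalings, a replicate block, limma-voom on the reads, each library left out and, added after seeing the data, a mean of at least 20 reads.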

Additional observations from a re-analysis of the deposited data

How the results depend on the processing

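Phlda2 passed the test in all 14 alternatives, and 310 of the values computed under alternatives for 25 single genes kept their direction and their side of the threshold, while 23 lost their call, 7 gained one and 5 changed sign. Over all tested genes, 234 rose and 325 fell. The rises numbered 146 without a filter, 365 with a mean of at least 5 FPKM, 33 without the intensity trend, 738 with limma-voom, 471 with at least 20 reads and 27 to 176 with 1 library left out. The falls numbered 202 without a filter, 45 without the trend, 728 with limma-voom, 599 with at least 20 reads and 34 to 296 with 1 library left out. Of the members, 1 rose with at least 5 FPKM, with limma-voom and with at least 20 reads; 1 fell without a filter and without the trend, and 1 to 2 with 1 library left out. Of the genes that set or keep imprints, 1 fell with at least 5 FPKM, 2 with limma-voom and 1 with at least 20 reads. Of the further genes of imprinted domains, 1 rose without a filter, 0 without the trend, 1 with a replicate block and 0 to 1 with 1 library left out. With 1 library left out, the log2 fold change ran from -0.087 to 0.045 for Peg3, -0.019 to 0.039 for Grb10, -0.079 to 0.00064 for Snrpn and -0.0785 to 0.00198 for Commd1, so that their direction was not settled. Another filter changed which genes were tested and refitted the variance trend over them. With at least 20 reads 12296 genes were tested, beside 12403 in the main fit. The cause of these shifts was not tested. Fits with 1 library left out leave a lone library in a group and assume that it varies like the other group. A replicate block ended the calls of Mcts2 (adjusted p = 0.0724) and Cd81 (0.0757); the replicate differences of the groups had a correlation of -0.0363 over genes, and with 2 pairs the libraries shared only a number. With 2 libraries a group and 12778056 to 19008830 reads, genes of few reads such as Asb4 and Cdkn1c had intervals too wide to show small differences.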
